A study of Drosophila melanogaster with 2 samples.

Results

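Of 13945 protein-coding genes on the 6 main chromosome arms of Drosophila melanogaster, 8 genes of lipid transport, lipid synthesis and storage are described here by the peaks of the transcription factor Hand in and around them. They are Mtp, Apoltp, apolpp, Lsd-1, mdy, FASN1, Lsp2 and Adh, all matched by symbol in the Ensembl annotation of the dm6 build. The genes were chosen by measured values, with the peaks in these same lists known, so the counts and signals below are a description and carry no test. Adh, for an enzyme of alcohol metabolism, and Lsp2, for a store of amino acids, belong to the group as fat body genes. They are not genes of lipoproteins or fat storage.

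Chromatin immunoprecipitation and sequencing was done on whole embryos of mixed sex, 6 to 24 hours old, labelled as 1 transgenic line (strain Hand-GFP) in which green fluorescent protein was joined to the C-terminus of Hand. An antibody against that protein was used for the precipitation, after sonication to fragments of 200 to 800 bp. There was 1 group of 2 biological replicates, labelled 2 and 3, and no control library was among the samples. The source label of both samples also names an insertion targeting Hand, without saying whether the endogenous gene or an added copy was altered. Beyond that, the labels give no detail on the regulatory sequence that drives the fusion protein or the state of the endogenous Hand gene. All cells of the embryo were pooled, so the cells that gave a peak cannot be told apart, nor can a signal in few cells be told from a weaker signal in many.

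Hand, a basic helix-loop-helix transcription factor, is best known from heart, visceral muscle and blood-forming tissue of the embryo. The fat body is the fly's counterpart of liver and adipose tissue. It makes lipophorin, the lipoprotein that carries diacylglycerol and sterols through the haemolymph, stores triacylglycerol in droplets, and secretes the hexameric storage proteins of the late larva.

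The stretches of genome under 7 of the members' summits are shown because the peaks differ in the words they hold. Each is the plus strand of the dm6 reference (RefSeq Release 6 genome), 5′ to 3′, 50 bp on each side of the pooled summit. Capitals mark GATAA (the core word of GATA factors), TAAACA (forkhead factors) and CANNTG, on either strand. CANNTG is the E-box, the class of word that basic helix-loop-helix factors read. TTATC is GATAA read from the other strand. Not shown are the windows of FASN1, of the proximal Adh start and of the weaker Mtp peak beyond its 3′ end.
Apoltp, upstream of its start, 2L:9633997-9634097: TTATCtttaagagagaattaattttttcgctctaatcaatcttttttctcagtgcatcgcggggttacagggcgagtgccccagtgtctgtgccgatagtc
Mtp, intron, 2L:20922368-20922468: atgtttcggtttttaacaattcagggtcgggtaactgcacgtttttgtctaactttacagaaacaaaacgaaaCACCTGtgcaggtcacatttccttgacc
Mtp, beyond its 3′ end, 2L:20918260-20918360: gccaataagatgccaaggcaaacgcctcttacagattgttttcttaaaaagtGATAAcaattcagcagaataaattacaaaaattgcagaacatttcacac
mdy, intron, 2L:16819803-16819903: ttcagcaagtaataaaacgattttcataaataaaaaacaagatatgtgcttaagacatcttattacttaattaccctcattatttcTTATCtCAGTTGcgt
Lsp2, beyond its 3′ end, 3L:12132011-12132111: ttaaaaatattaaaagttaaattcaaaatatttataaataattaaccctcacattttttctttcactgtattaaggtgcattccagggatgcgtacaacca
Adh, far upstream, 2L:14613724-14613824: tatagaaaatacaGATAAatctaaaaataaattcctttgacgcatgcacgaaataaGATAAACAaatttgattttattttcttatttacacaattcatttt
Adh, near upstream, 2L:14615131-14615231: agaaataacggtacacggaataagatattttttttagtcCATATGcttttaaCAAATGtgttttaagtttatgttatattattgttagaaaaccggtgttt

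Both replicates' lists held 30000 ranked peaks, and so did the list called on the pooled replicates. The authors' reproducibility comparison kept 3310 of the pooled peaks, called thresholded peaks here. They were the 3310 pooled peaks of highest signal, so being kept does not show that a single peak was found in both replicates. A peak's signal is the authors' own value, taken against a control alignment and not rescaled between lists, so levels in the pooled, replicate 2 and replicate 3 lists are on different footings and only ranks can be set side by side. Pooled signal ran from 92.5 to 2061 in the thresholded list, with a median of 136, and the strongest pooled peak that was not kept also had 92.5 after rounding. The replicates stood apart at the Hand gene itself, where a window of 90 kb held 4 peaks in replicate 2 and 36 in replicate 3, with 16 in the pooled list and 3 in the thresholded list. The labels give both libraries the same line, and whether both carried the tagged gene was not tested, since only peak lists were used. Among the 3310 strongest peaks of replicate 2, 60.8% had a summit among the 3310 strongest of replicate 3 within 100 bp. Results below are therefore also given for each replicate alone, and no read depth was at hand.

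In the group, 6 of 8 genes had at least 1 thresholded summit within the gene or its 2 kb flanks, and together they had 10. Mtp and Adh had 3 summits each, Apoltp, FASN1, mdy and Lsp2 had 1 each, and apolpp and Lsd-1 had none. By the same rule 25.7% of all protein-coding genes were counted, and so were 32.5% of the 5302 genes between the shortest and the longest member in length. Since the genes were selected on these peaks, nothing is read from the difference. Genes with 3 or more such summits made up 2.59% of all genes (361 genes).

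Taking replicate 3 alone changed which genes were counted, and taking replicate 2 alone did not. The 3310 strongest peaks of replicate 2 reached the same 6 genes, against 24.5% of all genes. Those of replicate 3 reached 4 genes, Mtp, Apoltp, Lsp2 and Adh, against 26.3% of all genes. FASN1 and mdy were the members lost, and their best peaks in replicate 3 ranked 3865 and 4056. Replicate 2 reached FASN1 through a summit 192 bp upstream of its start (rank 2217), while its summit matched to the thresholded peak ranked 3318. It reached mdy through a summit of rank 3106 that was more than 100 bp from the pooled one. Counting every pooled peak, however weak, 7 members had one, all but apolpp, against 74.4% of all genes. Every member had a peak in the full list of replicate 2, as had 76.9% of all genes, and every member had one in the full list of replicate 3, as had 74.6%.

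**Figure D1:**
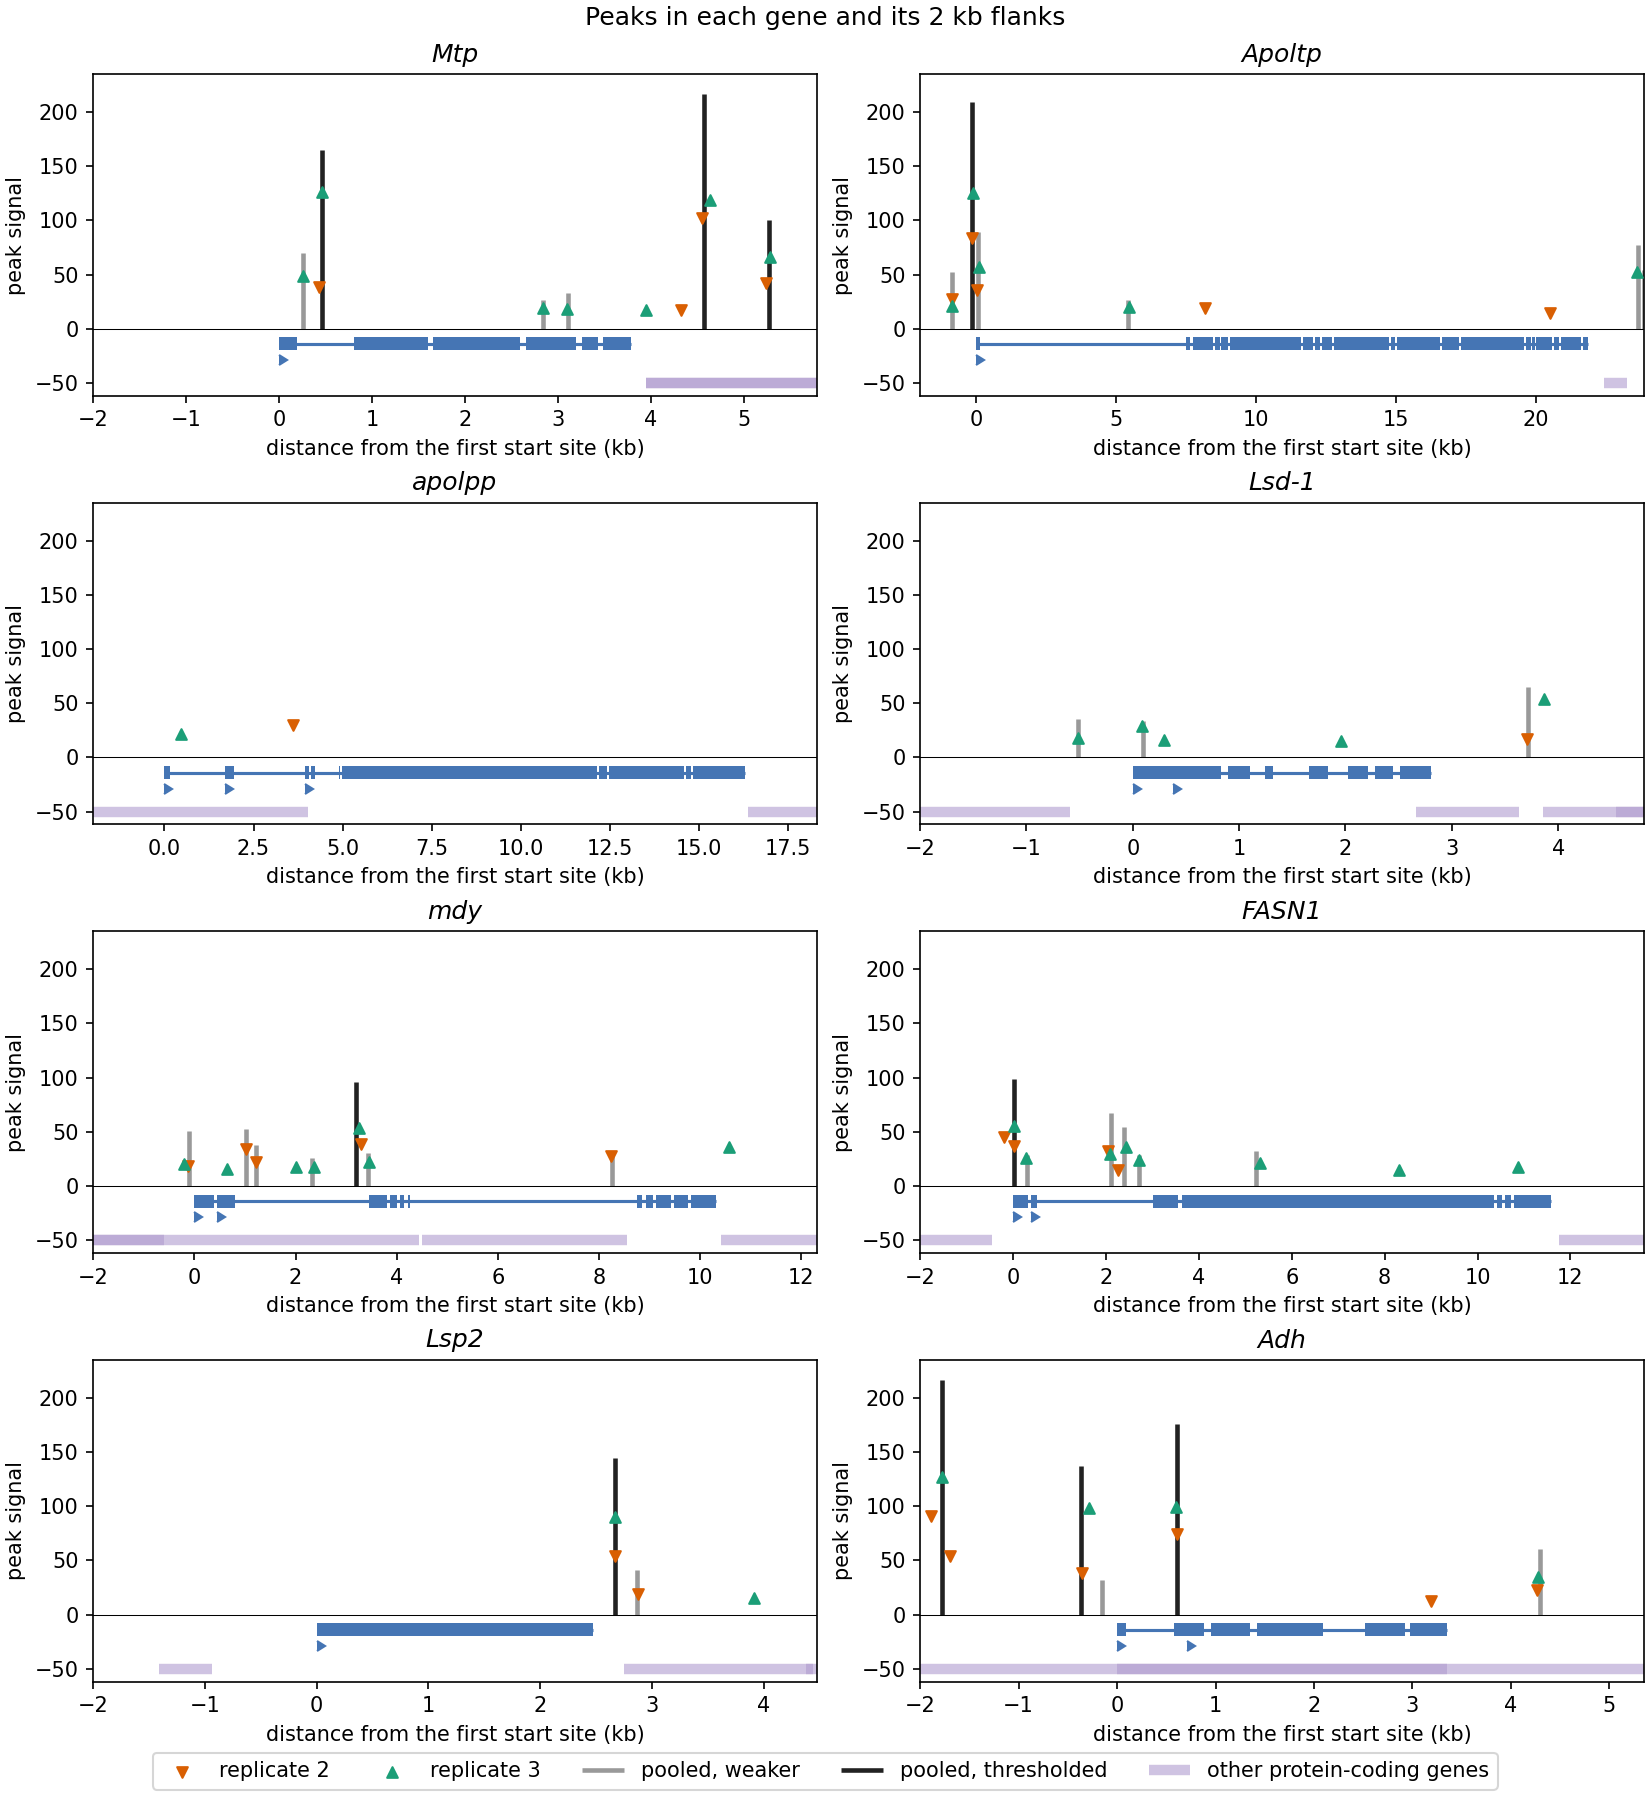
Each panel plots peak signal (vertical axis, the authors' value) against distance from the gene's first start site in kb for 1 of the 8 genes and its 2 kb flanks, with the gene running left to right. Black bars are thresholded pooled peaks, grey bars weaker pooled peaks, triangles the replicates' own peaks, blue boxes exons, blue arrowheads start sites and violet bars other protein-coding genes. The tall black bars stand at the start of Apoltp, at the starts of Adh and farther upstream of them, inside Mtp and on its far side, and past the 3′ end of Lsp2. The gene apolpp has no bar.

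Lipoprotein assembly and transfer was covered by Mtp, Apoltp and apolpp, which ran from 3 thresholded peaks at Mtp to none at apolpp. Mtp (FBgn0266369, 2L 20919094-20922876, minus strand) codes for the microsomal triglyceride transfer protein, which loads lipid onto apolipoproteins as they are made. One of its 3 thresholded peaks lay in the gene, at 2L 20922200-20922635 in an intron 458 bp downstream of the start. The pooled list gave it a signal of 165 (rank 1194), replicate 2 a signal of 38.2 (rank 3134) and replicate 3 one of 126 (rank 910). Replicate 3 thus placed this peak far higher than replicate 2, and the log2 ratio of replicate 3 to replicate 2 signal, 1.72, was the highest among the members' peaks. No other protein-coding gene lay within 2 kb of this summit.

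The other Mtp peaks lay beyond its 3′ end, inside introns of the neighbours sky and CG43739. The stronger, at 2L 20918092-20918527, was 784 bp beyond Mtp and 621 bp from the start of sky, and had a pooled signal of 216 (rank 728), the highest of the members' 10 peaks. Replicate 2 gave it 102 (rank 423) and replicate 3 gave 119 (rank 998), so both replicates held it among their stronger peaks, and its log2 ratio of 0.22 was the lowest among the members. The weaker, at 2L 20917386-20917821, was 1490 bp beyond Mtp and 143 bp upstream of a start of sky, with a pooled signal of 100.4 (rank 2835), 42.0 in replicate 2 and 66.3 in replicate 3. For both of these the nearest start site was that of sky, and only the 2 kb rule ties them to Mtp.

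Apoltp (FBgn0032136, 2L 9634179-9656026, plus strand) codes for the precursor of the lipid transfer particle's apolipoproteins, which moves lipid between tissues and lipophorin. Its thresholded peak, at 2L 9633829-9634264, was centred 132 bp upstream of its only start site, with no other protein-coding gene within 2 kb. The signal was 209 in the pooled list (rank 787), 83.7 in replicate 2 (rank 630) and 126 in replicate 3 (rank 919). All 3 lists thus held it within their first 919 peaks. A second pooled summit 67 bp downstream of the start, of signal 89.6, fell just short of the threshold and was found in both replicates, at 35.8 and 57.5. The intervals of these neighbouring peaks overlapped, at a median interval width of 436 bp in the thresholded list.

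At apolpp (FBgn0087002, arm 4 1060969-1077273, plus strand), which codes for the precursor of the apolipophorins, the structural proteins of lipophorin, no peak was called in the pooled list. Replicate 2 had 1 peak of signal 30.0 (rank 5174), 341 bp upstream of the start at 1064906. Replicate 3 had 1 of 22.0 (rank 16844), 464 bp downstream of the start at 1060969, so the replicates did not place a peak in the same position. Both positions lay in introns of apolpp and of the overlapping gene Zyx. The nearest thresholded summit was 33621 bp from the gene, near PlexA, with a signal of 109. Arm 4 held few peaks in general, with 11 thresholded and 66 pooled. Of its 80 protein-coding genes 12.5% had a thresholded summit and 31.2% any pooled peak, both under the shares for all arms.

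Lsd-1 (FBgn0039114, 3R 23763857-23766662, plus strand) codes for perilipin 1, a protein on the surface of lipid droplets that governs access of lipases. It had 3 weaker pooled peaks and no thresholded one. The peak nearest its own start, 95 bp downstream, had a signal of 33.8 in the pooled list and 29.2 in replicate 3, and no summit of replicate 2 lay within 100 bp. The strongest of the 3, at 64.6, was 910 bp beyond the gene and 84 bp from the start of CG10214, and the remaining peak, at 35.4, was 75 bp from the start of udt. In replicate 3 the strongest peak assigned to the gene, 53.7 (rank 4064), stood 12 bp from the start of CG10375, while replicate 2 had a single peak, of 17.0. The nearest thresholded summit, of signal 527, was 5653 bp away, near PTPMT1.

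Among the members, the enzyme genes of fat synthesis, FASN1 and mdy, had thresholded peaks close to the threshold. FASN1 (FBgn0283427, 2L 3056598-3068177, plus strand) codes for fatty acid synthase. Its thresholded peak, at 2L 3056407-3056842, was centred 27 bp downstream of the first start site, in the 5′ UTR, and it was also within 2 kb of the neighbour FASN2. The signal was 99.0 in the pooled list (rank 2925), 37.0 in replicate 2 (rank 3318) and 55.3 in replicate 3 (rank 3865). Replicate 2 had a stronger summit of its own at 45.2 (rank 2217), 192 bp upstream of the start, with no replicate 3 summit within 100 bp of it. An intronic pooled peak of 67.0, 1722 bp downstream of the second start, was weaker and was present in both replicates, at 32.4 and 29.6.

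The gene mdy (FBgn0004797, 2L 16816660-16826964, plus strand) codes for midway, a diacylglycerol acyltransferase that makes triacylglycerol. Its thresholded peak, at 2L 16819635-16820070, was the weakest of the 10, at 96.0 (rank 3099), and lay in introns of both mdy and CG13280, with a start of CG13280 nearest at 1240 bp and Cse1 also within 2 kb. Replicate 3 had a summit there of 53.9 (rank 4056). Replicate 2 had none within 100 bp, and its nearest, of 38.4 (rank 3106), was 104 bp from the pooled summit. At the first start site of mdy the pooled list held only a weaker peak of 51.0, 113 bp upstream, with 18.9 in replicate 2 and 20.3 in replicate 3.

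Lsp2 (FBgn0002565, 3L 12129393-12131869, plus strand) codes for a hexameric larval serum protein, a store of amino acids for metamorphosis. Its thresholded peak, at 3L 12131843-12132278, was 192 bp beyond the 3′ end and 85 bp upstream of the start of DEF8, and CG5645 was also within 2 kb. The pooled signal was 145 (rank 1479), with 54.4 in replicate 2 (rank 1508) and 90.2 in replicate 3 (rank 1606). Position and rank were close in all lists, with the replicates' summits 1 bp and 2 bp from the pooled one. Within 500 bp of the start of Lsp2 itself, no list held a peak.

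Adh (FBgn0000055, 2L 14615552-14618902, plus strand) codes for alcohol dehydrogenase and has a distal and a proximal start, 715 bp apart, used at different stages of life. All 3 of its thresholded peaks lay inside a long intron of osp and within 2 kb of Adhr as well, and for all 3 the nearest start site was one of Adh. The peak farthest upstream, at 2L 14613556-14613991, was 1778 bp before the distal start, with a pooled signal of 216 (rank 730) and 127 in replicate 3 (rank 896). Replicate 2 divided it into a summit of 91.3 (rank 529), 1895 bp before that start, and one of 53.8 (rank 1541), 1693 bp before it. Only the second lay within 100 bp of the pooled summit, so the log2 ratio of 1.24 for this peak rests on the weaker of the pair.

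The second Adh peak, at 2L 14614963-14615398, was 371 bp upstream of the distal start, with a signal of 137 (rank 1622) in the pooled list, 38.5 in replicate 2 (rank 3099) and 98.8 in replicate 3 (rank 1393). At the proximal start, 103 bp upstream, the peak at 2L 14615946-14616381 had 176 in the pooled list (rank 1067), 74.2 in replicate 2 (rank 821) and 99.1 in replicate 3 (rank 1382). Both starts thus had a thresholded peak within 500 bp upstream. Replicate 2 ranked the proximal peak well above the distal one, and replicate 3 ranked them nearly alike.

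**Figure D2:**
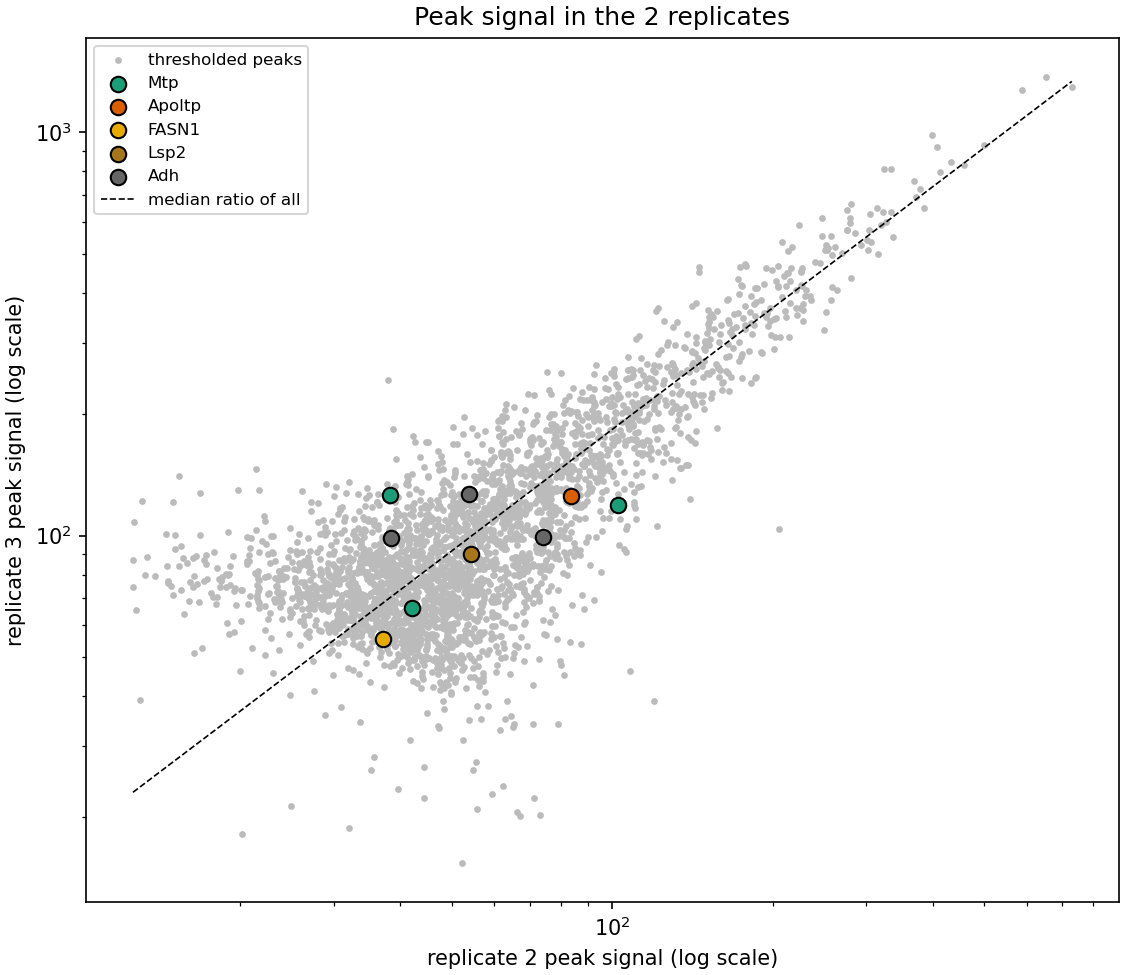
Peak signal in replicate 3 (vertical, log scale) is plotted against signal in replicate 2 (horizontal, log scale) for the thresholded peaks that have a summit within 100 bp in both replicates, grey for all 3015 and coloured by gene for the members' 9. The coloured points run from 37.0 to 102 in replicate 2 and from 55.3 to 127 in replicate 3, inside the grey cloud, and the dashed line is the median ratio of all.

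Set against all thresholded peaks, the members' 10 were of middling strength. Their pooled signal ran from 96.0 to 216 with a median of 155, and 7 of the 10 were above the median of all, 136. Of the members' peaks 9 of 10 had a summit in replicate 2 within 100 bp and 10 of 10 had one in replicate 3, where the shares for all thresholded peaks were 93.9% and 97.0%. The median log2 ratio of replicate 3 to replicate 2 signal was 0.66 over the 9 members' peaks with both (range 0.22 to 1.72) and 0.88 over the 3015 peaks of the whole list with both. Ranks were compared as log2 of the replicate 2 rank over the replicate 3 rank, positive where replicate 3 placed a peak nearer the top. These medians were -0.10 for the members, 6 of whose 9 peaks were placed lower in replicate 3, and 0.13 for all. The members' median was thus below that of all by signal and by rank. As signals are not rescaled between lists, no direction is read from the sign of the signal ratio.

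By position, 7 of the 10 summits were within 500 bp of a protein-coding start site, against 49.6% of all thresholded summits. With those set aside, the other 3 were in introns (35.3% of all), and none was left in an exon or between genes. The members' median distance to a start was 257 bp, against 512 bp for all. In 6 of 10 the nearest start was the member's own, and the remaining 4 were nearest to sky (both of the Mtp peaks beyond its end), CG13280 (mdy) and DEF8 (Lsp2). Summits that lay in or within 2 kb of more than 1 protein-coding gene made up 8 of the 10, and 47.4% of all thresholded summits. Only the intronic Mtp peak and the Apoltp peak had their member as the sole gene in reach.

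Below the threshold the members had 25 weaker pooled peaks: 6 at mdy, 5 each at Apoltp and FASN1, 3 each at Mtp and Lsd-1, 2 at Adh, 1 at Lsp2 and 0 at apolpp. Per kb of gene and flanks the median was 0.296 over the members and 0.203 over all protein-coding genes. Of the 25, 6 had a summit within 100 bp in both replicates, and 30.1% of all 26690 weaker pooled peaks had one. The 6 were 3 at Apoltp and 1 each at FASN1, mdy and Adh. The strongest of the 25 were those of Apoltp at 89.6 and at 77.3, the second of them 1781 bp beyond the gene's 3′ end and nearest to the start of CG33299. Just inside the threshold stood the peaks of mdy at 96.0 and FASN1 at 99.0.

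The words in the summit windows differed from peak to peak. GATAA was found in 5 of the 10 windows and in 23.3% of all thresholded windows. The 5 were those of the Mtp peak beyond its 3′ end with signal 216, of Apoltp, of mdy, and of the Adh peaks far upstream and at the proximal start, and the far upstream window held it in 2 copies. One of these copies overlapped TAAACA, as GATAAACA. TAAACA was also found, in 2 copies, under the weaker Mtp peak beyond the 3′ end. This made 2 of 10 windows with TAAACA, against 15.7% of all.

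The E-box CANNTG was found in 4 of 10 windows, at the Mtp intron, FASN1, mdy and the near upstream peak of Adh, and in 34.7% of all thresholded windows. The form CATCTG, which Hand reads together with its partner Daughterless, was found in none of the 10 and in 2.66% of all, and in 1 of 10 with 100 bp on each side. TTGCNNAA (C/EBP factors) was found in 2 of 10 and 8.55% of all, AGGTCA (nuclear receptors) in 1 and 1.72%, TATAAA (the TATA box) in 1 and 22.1%, and GAGAG (the GAGA factor) in 1 and 13.9%. CACGTG, TATCGATA and CAGGTA were in none of the 10, and in 1.03%, 0.997% and 1.60% of all, and with 100 bp on each side CACGTG was in 1. With 10 windows, 1 window is worth 10% of them, and a match is a description of letters and not of a bound site.

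Windows of the same length centred 400 bp to the left of the members' summits held GATAA in 1 of 10, TAAACA in 0 and CANNTG in 5. For all thresholded peaks those flank windows held GATAA in 19.0%, TAAACA in 10.1% and CANNTG in 39.2%. By median, summit windows were richer in A and T than the flanks of all thresholded peaks. The medians were 69.8% for the members (range 46.5% to 79.2%), 66.3% for all thresholded summits and 56.4% for the flanks of all. The members' own flanks are not given apart. GATAA and TAAACA are themselves rich in A and T, and the part of base composition in these counts was not tested. The counts also moved with the window: GATAA was found in 2 of 10 with 25 bp on each side and in 8 of 10 with 100 bp, and in 3 of 10 flank windows to the right. CANNTG was found in 3 of 10 flank windows to the right, fewer than the 4 summit windows, where the left flanks held more.

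**Figure D3:**
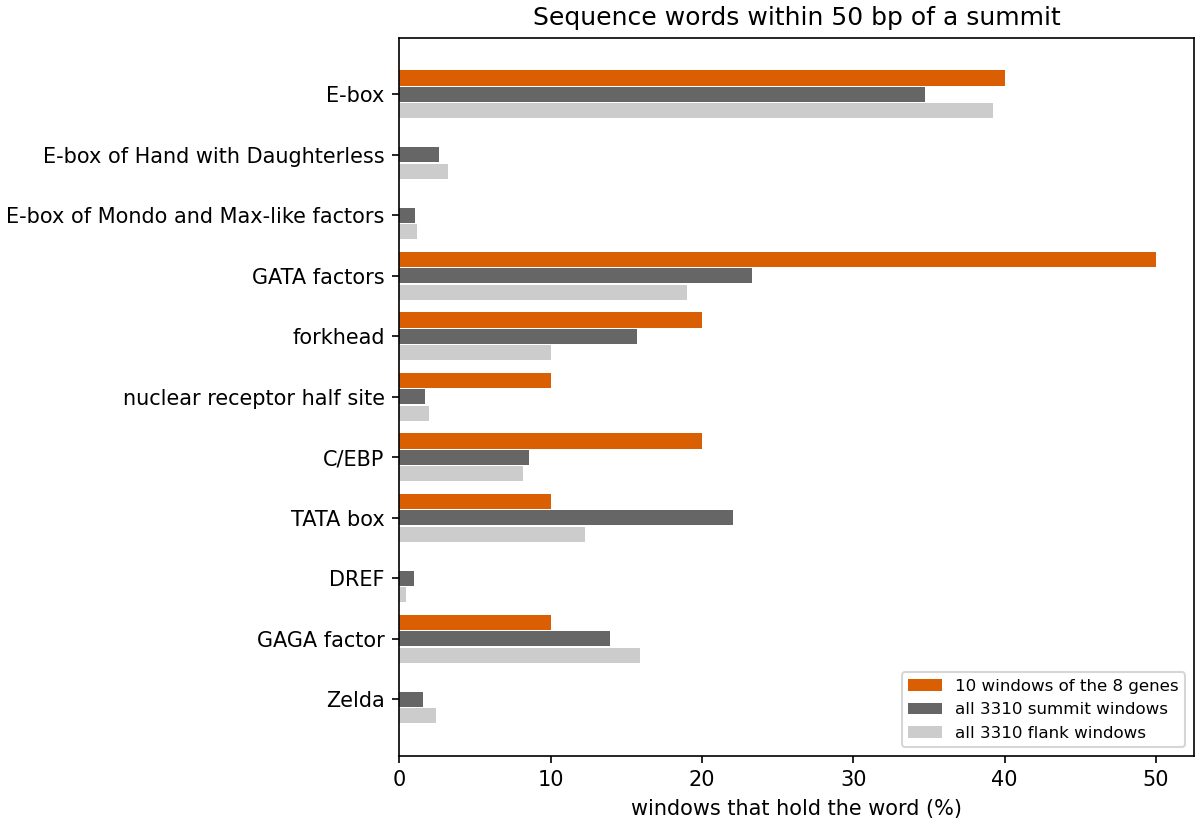
For each sequence word, the share of windows that hold it on either strand (horizontal axis, percent) is given for the members' 10 summit windows, all 3310 thresholded summit windows and the flank windows centred 400 bp to the left. GATAA (GATA factors) stands at 5 of the members' 10 windows and 23.3% of all, and CANNTG (E-box) at 4 of 10 and 34.7%.

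Other genes of the same pathways were counted by the same rule in 8 lists with 85 genes in all, written with earlier results of these data known. Of these 47 (55.3%) had at least 1 thresholded summit by the 2 kb rule, and without the members 41 of 77 (53.2%), against 25.7% of all protein-coding genes. The 41 are not free of the members' peaks. Adhr was counted only through those of Adh, and the FASN1 peak was also assigned to FASN2, which had another, stronger one. The list genes were longer, with a median of 4901 bp against 2166 bp, and among the 3816 genes with lengths from 2692 to 9921 bp, the quartiles of the lists' lengths, 29.9% had a summit. Replicate 2's top peaks alone reached 40 of the 85 genes and replicate 3's reached 46. When each summit was given only to the gene with the nearest start, 36 list genes and 15.9% of all genes had one.

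Fatty acid synthesis had the highest share, 9 of 11 genes. The strongest peaks beside those of FASN1 were assigned to Desat1 (a fatty acid desaturase), at 881 in the pooled list, 280 in replicate 2 and 596 in replicate 3, to ATPCL (ATP citrate lyase) at 559, and to Baldspot (a fatty acid elongase) at 469. The Desat1 peak was nearest to the start of CG18549 and the ATPCL peak to that of CG8320. In the list for triacylglycerol synthesis, which also holds Pect, a gene of phosphatidylethanolamine synthesis, 7 of 10 genes had a peak. It was led by Lpin (the phosphatidate phosphatase lipin) at 341, Agpat2 (an acyltransferase) at 304 and Pect at 188. Agpat3 and Agpat4 were counted through 1 shared peak, and Dgat2, mino and Agpat1 had none.

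Among lipid transfer proteins and lipoprotein receptors 4 of 9 had a peak, and those that were not members were Pdi (protein disulfide isomerase, the partner of the transfer protein in mammals), at 348 and nearest to CG12316, and LpR2 (a lipophorin receptor) at 178. Of droplet proteins and lipases 4 of 10 had one, with bmm (the lipase brummer) at 462, Seipin at 232 and Lsd-2 (perilipin 2) at 225. Lsd-2 thus had a thresholded peak where Lsd-1 had none, with 92.7 in replicate 2 and 139 in replicate 3. Storage and yolk proteins had the lowest share, 2 of 9, which were Lsp2 and Yp3. The stronger of the 2 Yp3 peaks, at 108, was nearest to the start of rdgB.

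Fat body enzymes had 7 of 12, with Glyp (glycogen phosphorylase) at 637, Adhr through the peaks already given for Adh, and Pepck1 at 175, nearest to Rgk2. Fatty acid oxidation had 4 of 9, with yip2 at 144, Mcad at 143 and Mtpbeta at 136, the last nearest to ken. Regulators of the fat body and of lipid metabolism had 10 of 15, with REPTOR at 678, SREBP (which drives lipid synthesis genes) at 341 and foxo (of insulin signalling) at 312. In 6 of the 8 lists the leading gene outside the group exceeded 216, the highest signal at any member.

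**Figure D4:**
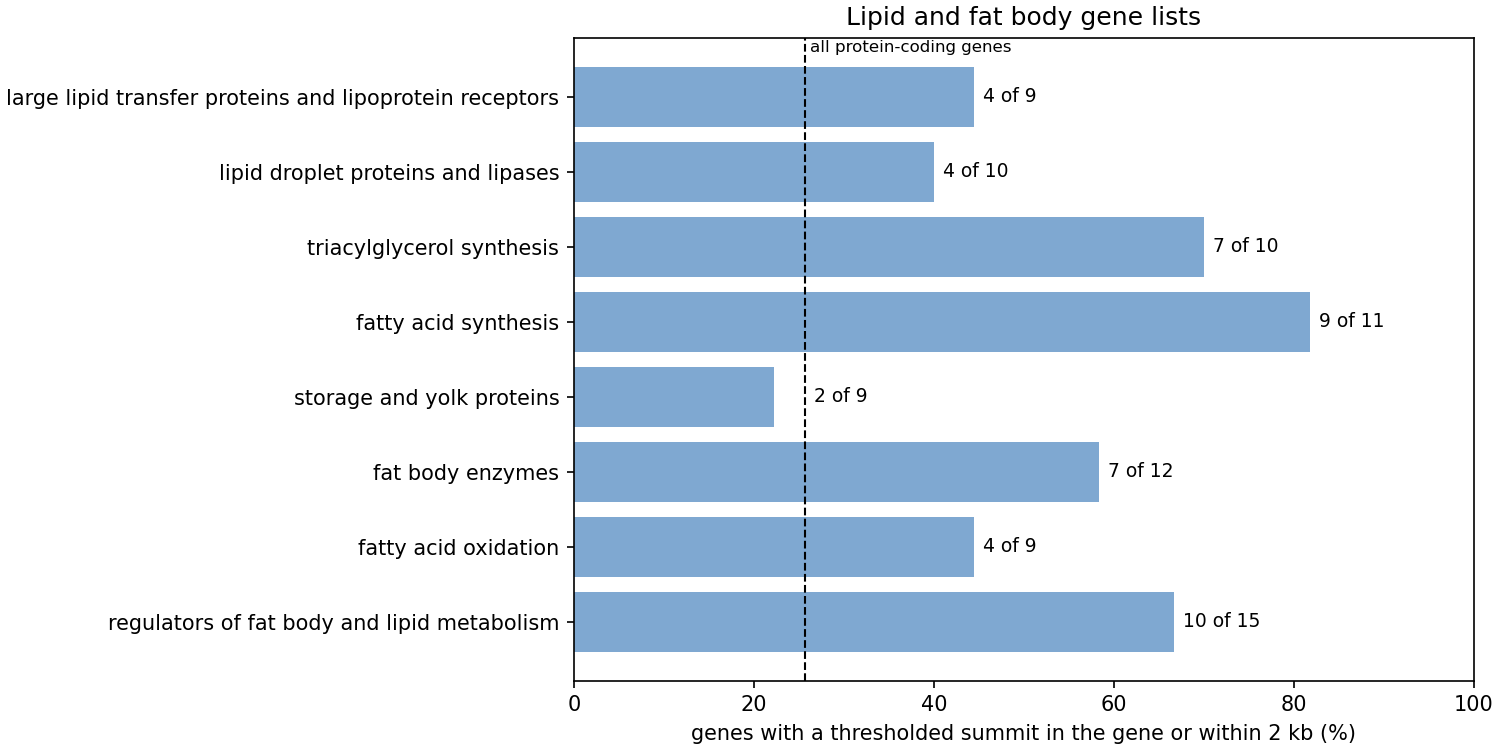
Bars give the percentage of genes in each of the 8 lists that have a thresholded summit in the gene or within 2 kb, with the counts beside them, and the dashed line is the 25.7% of all protein-coding genes. Fatty acid synthesis is highest at 9 of 11 and storage and yolk proteins lowest at 2 of 9.

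The genes most like the members were sought by the signal of their strongest thresholded peak in both replicates. The centre was the median over the 5 members with a value in both, 54.4 in replicate 2 and 119 in replicate 3. The first value came from Lsp2 and the second from Mtp, so no member had this pair. Adh lay near the centre (53.8 and 127) and FASN1 far from it (37.0 and 55.3). Nearest to the centre among genes in no list were kek6 (54.4 and 118), Cdep (54.0 and 119) and RpL8 (54.8 and 119). The likeness is over 2 libraries and 1 peak a gene.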

How the data were processed

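Peak lists of 2 Hand-GFP samples were read; the dm3 lists were not used. Per the deposited file listing, each replicate's list and the pooled list were called by the authors against a shared control alignment, and the thresholded list came from their reproducibility (IDR) comparison. The deposited signal is the peak caller's value. The deposited −log10 q-value was not used, since 2762 of 3310 peaks shared its highest value, 3.74. No source used here names the aligner, the peak caller, its settings or the depth.

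Summits were assigned to protein-coding genes of Ensembl release 115 (dm6) within the gene or 2 kb, and matched between lists within 100 bp, the strongest taken. Of the list symbols, 2 were matched through a synonym and 1 second name was dropped. Words were sought on both strands. Named were all members, genes within 2 kb of or nearest to their peaks, the 3 strongest other genes of each list and the 3 genes most alike. CG33299, PlexA, Zyx, CG10214, udt, CG10375, PTPMT1, further list genes and neighbours of list genes were named after their values were seen. The members, lists and words were chosen with earlier results of these data known. With 1 group and no control there was no contrast. Assignment and word search were tested on simulated data. Python 3.11.15, numpy 2.4.6, pandas 2.3.3 and matplotlib 3.10.9 were used. Alternatives were other distances, nearest start alone, stronger peaks, single replicates, matching rules, ranks, windows and promoter widths.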

Additional observations from a re-analysis of the deposited data

How the results depend on the processing

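The 6 members with a thresholded summit (25.7% of all genes) became 4 with the gene body alone (Mtp, FASN1, mdy and Adh; 10.2% of all), 4 with the nearest start alone (15.9%) and 4 with the 1655 strongest peaks (15.4%), and were 6 at 1 kb (20.9%) and at 5 kb (37.3%). Their 10 peaks became 4 with the gene body alone and 6 with the nearest start alone. The top peaks of replicate 2 alone gave 6 members, 11 peaks and 40 list genes, against 24.5% of all genes. Those of replicate 3 alone gave 4 members, without FASN1 and mdy, 8 peaks and 46 list genes, against 26.3% of all genes. With the 1655 strongest peaks 30 list genes were left of 47, and 2152 of 3579 over all genes. By rank, the median log2 of the replicate 2 rank over the replicate 3 rank was -0.10 for the members and 0.13 for all peaks (positive where replicate 3 placed a peak higher); the cause was not tested. With 25 bp on each side of the summit 1 window held CANNTG. Of 25 weaker peaks 6 had a summit in both replicates, and 18 had no stronger pooled summit within 250 bp, an alternative chosen after seeing the data. No paired analysis was possible because there was 1 group. Pooled signals have no error, the depth is unknown, and 2 replicates of 1 line without a control allow no test.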

Other observations

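Of the members' 25 weaker pooled peaks, 7 had a stronger pooled summit within 250 bp, against 12.1% of all 26690 weaker pooled peaks. They lay beside the peaks of Mtp, Apoltp (1 at each end of the gene), mdy (2), Lsp2 and Adh. Because the genes were chosen with their peaks known, nothing is read from the difference.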
